A study of Mus musculus with 31 samples.

Results

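The proteasome genes of mouse liver were followed through a 16 h fast. They were taken as every gene whose only symbol in the array's annotation had the form Psma, Psmb, Psmc, Psmd, Psme, Psmf or Psmg with a number, and 47 of 22180 genes met that rule. For the 3 members with more than 1 probe set (Psma5, Psmc2 and Psmg2), the one with the highest signal averaged over the 31 arrays was taken. Psma4 is not among the 47, because its probe sets also carry the symbol of another gene. The members comprised 7 genes of the 20S alpha ring, 7 standard genes of the 20S beta ring, the 3 immunoproteasome genes Psmb8, Psmb9 and Psmb10, and the thymus subunit gene Psmb11. The regulatory particle was represented by 6 ATPase and 11 non-ATPase genes of the 19S complex with 3 of its assembly chaperones. The others were 4 activator genes, the inhibitor gene Psmf1 and 4 genes of 20S assembly chaperones.

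The proteasome is the protease that degrades ubiquitin-tagged proteins in the cytosol and nucleus of every cell. Its 20S core holds the proteolytic sites inside a barrel of alpha and beta rings, and the 19S regulatory particle binds the ubiquitin chain, removes it and uses ATP to unfold and feed in the substrate. In immune cells, and in other cells exposed to interferon, newly made cores can carry the inducible catalytic subunits encoded by Psmb8, Psmb9 and Psmb10 in place of the constitutive ones, which changes the peptides cut for class I antigen presentation. In liver, proteasomes and autophagy are the main routes by which cell protein is broken down.

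The study's title asks whether fasting leaves a metabolic memory. Liver RNA came from male C57BL/6 mice, pure-bred and 3 to 4 months old, all killed in the morning, with 100 ng of total RNA labelled for 1 whole-transcript array per animal. Mice either had gone through 2 fasts of 16 h within 8 weeks or had always been fed ad libitum, the latter from a cohort of 24 per the labels, and each was then sampled fed or after a final 16 h fast. The 4 groups were the Fed-Fed-Fed mice (fed at sampling, 0 earlier fasts, n = 8), the Fed-Fed-Fast mice (fasted, 0 earlier fasts, n = 8), the Fast-Fast-Fed mice (fed, 2 earlier fasts, n = 8) and the Fast-Fast-Fast mice (fasted, 2 earlier fasts, n = 7).
No group carried a genetic change or received an agent, and the labels name no processing batch. The values were log2 signals made with the RMA method, from -0.0139 to 13.1 over all probe sets, with array medians of 2.01 to 2.07. Pearson's r between any pair of arrays, across genes, ran from 0.965 to 0.982. Precision is set by the 7 or 8 arrays per group. All 7 measured hepatocyte markers were bright, with mean signals between 9.05 and 12.99. A whole-liver sample mixes cell types, so fewer cells of a type and less RNA per cell cannot be told apart in any value given here. Signals of different probe sets are not on a common scale, so levels are compared between groups of arrays for the same gene. The words bright and dim are used only as a rough guide, for a mean signal over all arrays above or below that of the median gene, 2.26.

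The upstream sequences of the members are shown first, since part of the 19S genes shared a stretch of letters there. RefSeq's annotation of GRCm38.p6 gave a start-site window for 39 of the 47 members, 42 windows in all, and the 250 bases before the start were searched on both strands. The letters CCGGAAG, the core bound by ETS-family transcription factors, stood in 9 of 15 windows of 19S ATPase and non-ATPase genes (60%), in 1 of 11 windows of 20S alpha and standard beta genes, and in 0 of 3 immunoproteasome windows. Among all 42 windows of the members, 13 held these letters. The 13 include windows of the activator genes Psme3 and Psme4 and the 20S assembly chaperone gene Psmg1. None of these genes was called in fasted liver below, so the letters were not confined to the 19S genes. Over all 32851 windows of 27025 genes the share was 6.91%. The 9 stretches of the 19S genes follow, since no other motif searched was in as many 19S windows. Each has up to 12 flanking bases on the gene's strand, with the matching letters, or their reverse complement CTTCCGG, in capitals.
Psmc1, chr12:100110162-100110192, plus strand: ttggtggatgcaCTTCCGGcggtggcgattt
Psmc2, chr5:21785179-21785209, plus strand: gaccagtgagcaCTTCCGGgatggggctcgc
Psmc2, chr5:21786711-21786741, plus strand: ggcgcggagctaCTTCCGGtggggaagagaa
Psmc6, chr14:45329712-45329742, plus strand: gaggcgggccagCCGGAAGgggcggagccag
Psmd11, chr11:80428592-80428614, plus strand: gcgagggcgggtCTTCCGGgtgt
Psmd12, chr11:107479499-107479527, plus strand: atgagcgggcgaCTTCCGGtgcgagtgac
Psmd2, chr16:20651614-20651644, plus strand: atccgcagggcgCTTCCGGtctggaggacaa
Psmd4, chr3:95042721-95042751, minus strand: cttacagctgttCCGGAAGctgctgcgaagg
Psmd6, chr14:14120972-14121002, minus strand: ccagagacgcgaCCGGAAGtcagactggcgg
Of the 14 19S genes with a window, 8 held these letters and 6 did not (Psmc4, Psmc5, Psmd1, Psmd13, Psmd14 and Psmd8). All 8 with the letters and 5 of the 6 without them were among the genes called higher in fasted liver below. The median log2 change, averaged over both histories, was 0.26 with the letters and 0.33 without them. A match is a description of the letters in the window and does not show that a factor binds there.

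The antioxidant response element (TGACNNNGC or TGAGNNNGC), the core of the element through which Nfe2l1 and Nfe2l2 act on proteasome genes, was in 28.6% of the members' windows and 23.0% of all windows. By class it was in 4 of 15 windows of the 19S genes, 5 of 11 of the 20S genes (45.5%) and 0 of 3 of the immunoproteasome genes. The CCAAT box was in 33.3% of the members' windows and 33.8% of all windows, and by class in 4 of 15, 6 of 11 (54.5%) and 1 of 3. The shares in members and in all windows were 7.14% and 6.69% for the heat shock element (GAANNTTC) and 4.76% and 7.02% for the gamma-activated site (TTCNNNGAA). The interferon-stimulated response element was in 3 of 42 windows, or 7.14% against 2.98% of all windows, and the FoxO site (GTAAACA) in 0 of 42 against 3.17%. The letters of different motifs may overlap. The 250 bases upstream of both members with the largest rise are printed because those genes stood apart from the rest of their class, with every match to a searched motif in capitals.
Psmd4, chr3:95042615-95042864, minus strand: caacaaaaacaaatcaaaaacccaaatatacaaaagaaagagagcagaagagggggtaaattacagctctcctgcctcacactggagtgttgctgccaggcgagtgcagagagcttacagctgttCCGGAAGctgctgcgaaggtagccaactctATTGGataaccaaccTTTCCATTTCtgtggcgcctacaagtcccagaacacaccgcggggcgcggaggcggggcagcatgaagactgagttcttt
Psmd9, chr5:123227940-123228189, plus strand: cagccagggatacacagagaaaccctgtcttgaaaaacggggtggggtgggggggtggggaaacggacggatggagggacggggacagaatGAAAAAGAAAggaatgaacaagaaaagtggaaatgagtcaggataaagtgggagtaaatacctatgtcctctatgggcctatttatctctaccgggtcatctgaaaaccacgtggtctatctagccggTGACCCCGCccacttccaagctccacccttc
In Psmd4 the capitals mark the ETS letters at -125 to -119 from the start site, a CCAAT box at -95 to -91 and an interferon-stimulated response element at -80 to -71. In Psmd9 they mark an interferon-stimulated response element at -159 to -150 and an antioxidant response element at -31 to -23.

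The 3 immunoproteasome genes are printed in the same way, since they were the only members called lower in fasted liver below.
Psmb8, chr17:34197945-34198194, plus strand: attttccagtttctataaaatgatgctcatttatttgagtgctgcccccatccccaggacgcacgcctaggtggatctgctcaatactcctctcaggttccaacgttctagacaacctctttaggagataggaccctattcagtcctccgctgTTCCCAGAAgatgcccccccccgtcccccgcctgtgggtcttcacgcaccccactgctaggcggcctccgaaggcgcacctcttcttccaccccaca
Psmb9, chr17:34187331-34187580, minus strand: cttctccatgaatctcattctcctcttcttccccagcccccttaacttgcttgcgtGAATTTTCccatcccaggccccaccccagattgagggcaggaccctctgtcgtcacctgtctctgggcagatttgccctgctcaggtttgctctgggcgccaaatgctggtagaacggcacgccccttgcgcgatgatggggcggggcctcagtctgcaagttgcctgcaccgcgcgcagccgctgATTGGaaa
Psmb10, chr8:105938393-105938642, minus strand: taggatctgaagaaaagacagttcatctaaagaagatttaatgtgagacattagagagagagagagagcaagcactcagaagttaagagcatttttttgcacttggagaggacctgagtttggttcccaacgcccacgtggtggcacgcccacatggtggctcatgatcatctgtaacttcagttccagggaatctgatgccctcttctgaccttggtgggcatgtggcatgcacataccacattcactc
In Psmb8 the capitals mark a gamma-activated site at -97 to -89. In Psmb9 they mark a heat shock element at -194 to -187 and a CCAAT box at -8 to -4. No searched motif was found in the Psmb10 window, which says only that these letters are not in these 250 bases. Psmb9 and Tap1, which encodes a subunit of the peptide transporter of class I presentation, start on opposite strands with 226 bases between their start sites.

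The first comparison asks what the final fast did to the proteasome genes. In fasted liver the regulatory particle and part of the core were higher and the immunoproteasome genes were lower. From 1 limma fit of the 4 groups, a gene was called higher or lower when its adjusted p (Benjamini-Hochberg, 22180 genes) was under 0.05. In mice with 0 earlier fasts, 19 of 47 members were called higher, against 6.25% of all genes, and 2 lower, against 6.23%. With 2 earlier fasts, 17 members were called higher and 3 lower, against 6.06% and 5.52% of all genes. In the response averaged over both histories, which has more arrays behind each value, 24 members were called higher, 3 lower and 20 neither, against 9.79% of all genes higher and 9.36% lower. The median change of the members was 0.15 with 0 earlier fasts, 0.14 with 2 and 0.15 in the average, while the median over all genes was 0.00 in each. The rises were small: among the 24, only Psmd4 and Psmd9 reached 1.4-fold.

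**Figure D1:**
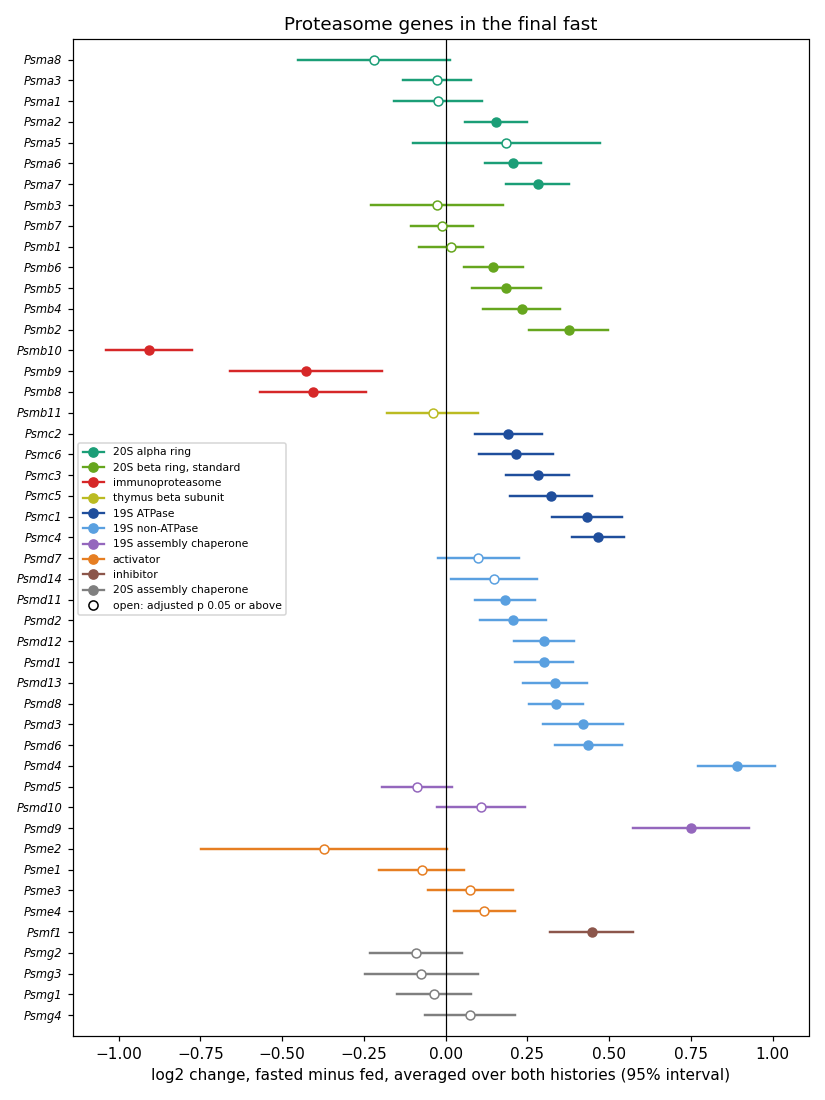
Log2 change of each of the 47 members, fasted minus fed and averaged over both histories, with the 95% interval; colours mark the classes and open circles the 20 members not called. All 17 genes of the 19S ATPase and non-ATPase classes lie right of zero, Psmd4 and Psmd9 are farthest right, and Psmb10, Psmb9 and Psmb8 lie to the left.

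The 19S subunits formed the class with the most rises. Of its 17 ATPase and non-ATPase genes, 12 were called higher in each history and 15 in the average, with none called lower and all 17 changes above zero in both histories. Their median change was 0.28 with 0 earlier fasts and 0.33 with 2. The 2 not called in the average were Psmd7, at 0.10 (adjusted p = 0.307), and Psmd14, the deubiquitinase that removes the ubiquitin chain, at 0.15 (adjusted p = 0.120).

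Psmd4, a ubiquitin receptor of the 19S particle, had the largest averaged rise of all members. Its log2 signal ran from 7.20 to 7.67 with a median of 7.42 in fed mice and from 7.90 to 8.55 with a median of 8.31 in fasted mice, both with 0 earlier fasts. After 2 earlier fasts it ran from 7.18 to 7.52 with a median of 7.31 in fed mice and from 8.12 to 8.48 with a median of 8.26 in fasted mice. Each of the 15 fasted arrays was above each of the 16 fed arrays. The change was 0.84 with 0 earlier fasts (SE 0.08, adjusted p = 7.62e-10) and 0.94 with 2 (SE 0.08, adjusted p = 1.53e-10), or 1.79-fold and 1.92-fold.

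Psmc4, one of the ATPases of the ring that unfolds substrates, had the second-largest averaged rise within the 17. It ran from 7.59 to 7.83 (median 7.68) in fed and from 8.12 to 8.41 (median 8.18) in fasted mice with 0 earlier fasts. After 2 earlier fasts the fed values were 7.63 to 7.84 (median 7.73) and the fasted values 8.07 to 8.27 (median 8.15). Fed and fasted arrays did not overlap in either history. The averaged change was 0.47 (SE 0.04, adjusted p = 1.66e-11), which is 1.38-fold.

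Psmc1, another ATPase of the ring, went from 7.26 to 7.70 (median 7.46) in fed to 7.84 to 8.06 (median 7.90) in fasted mice with 0 earlier fasts. Mice with 2 earlier fasts went from 7.13 to 7.68 (median 7.48) to 7.76 to 7.99 (median 7.90). The groups did not overlap, and the averaged change was 0.43 (SE 0.05, adjusted p = 6.53e-08). Psmd8, a lid subunit, went from 8.33 to 8.51 (median 8.41) to 8.61 to 8.83 (median 8.75) with 0 earlier fasts and from 8.12 to 8.54 (median 8.34) to 8.55 to 8.82 (median 8.65) with 2. Its averaged change was 0.34 (SE 0.04, adjusted p = 6.07e-08), again with no overlap, though with 2 earlier fasts the highest fed and the lowest fasted array differed by very little.

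Psmd6, Psmd3 and Psmd13, further subunits of the lid, rose with some overlap between groups. Psmd6 ran from 6.56 to 6.97 (median 6.76) in fed and from 6.82 to 7.33 (median 7.13) in fasted mice with 0 earlier fasts, and from 6.57 to 6.83 (median 6.69) and 7.03 to 7.31 (median 7.12) with 2. Its groups overlapped with 0 earlier fasts through fasted replicate 1 and were apart with 2, and the averaged change was 0.44 (SE 0.05, adjusted p = 2.10e-08). Psmd3 ran from 6.21 to 6.71 (median 6.52) in fed and from 6.81 to 7.16 (median 6.94) in fasted mice with 0 earlier fasts, and from 6.13 to 6.76 (median 6.49) and 6.69 to 7.07 (median 6.88) with 2. It was apart only with 0 earlier fasts, with an averaged change of 0.42 (SE 0.06, adjusted p = 1.28e-06). Psmd13 ran from 6.10 to 6.42 (median 6.21) in fed and from 6.28 to 6.64 (median 6.50) in fasted mice with 0 earlier fasts, and from 5.95 to 6.32 (median 6.06) and 6.40 to 6.66 (median 6.48) with 2. It was apart only with 2 earlier fasts, and the averaged change was 0.33 (SE 0.05, adjusted p = 1.57e-06).

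Counted over all members, every fasted array was above every fed array for 6 genes with 0 earlier fasts, against 2.18% of all genes, and for 11 with 2, against 2.29%. Over both histories together this held for 4 members, Psmc1, Psmc4, Psmd4 and Psmd8, against 1.21% of all genes. The reverse held for 1 member, Psmb10, in each history and over both, against 2.10%, 2.08% and 1.17% of all genes.

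Of the 19S assembly chaperones, Psmd9 rose and the others were not called. Psmd9 helps to put together the base of the 19S particle and is not part of the finished protease. With 0 earlier fasts it ran from 5.25 to 5.79 (median 5.44) in fed and from 5.77 to 6.74 (median 6.43) in fasted mice. Among mice with 2 earlier fasts it ran from 5.38 to 5.88 (median 5.69) in fed and from 5.81 to 6.56 (median 6.44) in fasted mice. The groups overlapped only at their edges, where fasted replicate 4 with 0 earlier fasts and fasted replicates 1 and 3 with 2 lay low. The change was 0.88 (SE 0.12, adjusted p = 1.41e-06) and 0.63 (SE 0.13, adjusted p = 0.000486), or 1.84-fold and 1.54-fold. Psmd10 and Psmd5, which take part in the same assembly, had averaged changes of 0.11 (adjusted p = 0.310) and -0.09 (adjusted p = 0.304).

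**Figure D2:**
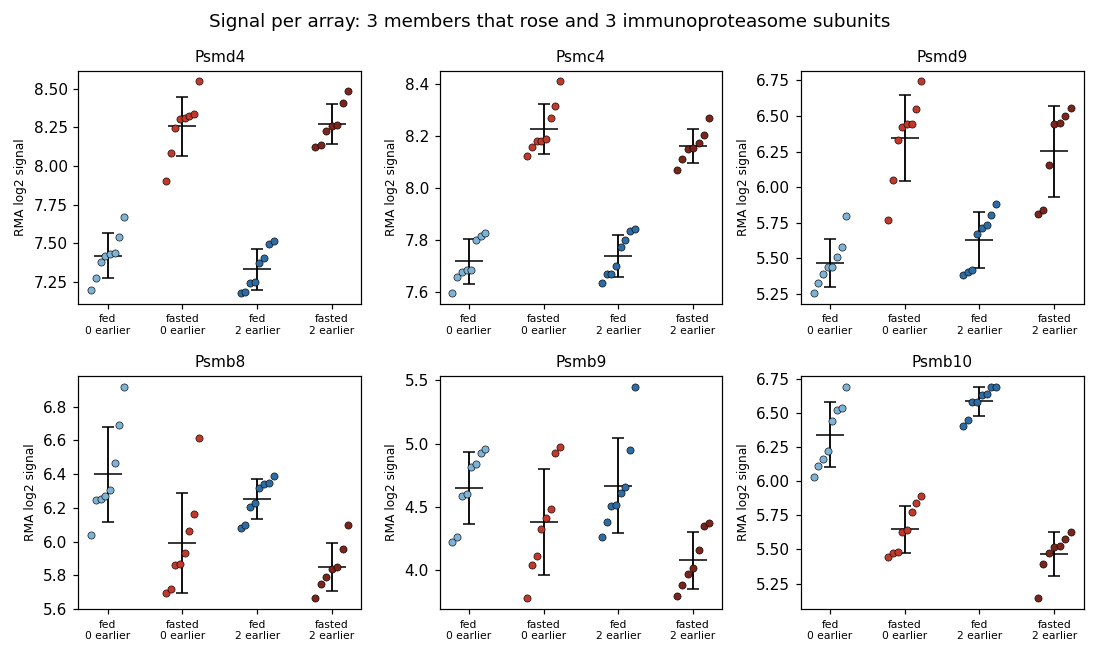
RMA log2 signal of Psmd4, Psmc4, Psmd9, Psmb8, Psmb9 and Psmb10 in each array, points placed in order of value within a group; the line is the group mean and the bar 1 SD (n = 8, 8, 8 and 7). The fasted groups stand wholly above the fed groups for Psmd4 and Psmc4 and wholly below them for Psmb10, while Psmd9, Psmb8 and Psmb9 overlap; each panel has its own axis, which does not start at zero.

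A smaller part of the 20S core than of the 19S particle was called higher. Of the 14 alpha and standard beta genes, 5 were called higher with 0 earlier fasts, 3 with 2 and 7 in the average, with none called lower. Their median change was 0.12 in each history and 0.15 in the average. In the alpha ring, which gates the barrel, Psma7 rose by 0.28, Psma6 by 0.21 and Psma2 by 0.15 in the average, while Psma1 and Psma3 stood at -0.02 and -0.03. Psma5 and the testis subunit gene Psma8 had dim probe sets, with mean signals of 2.13 and 1.61, and were not called.

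In the beta ring, Psmb2, a non-catalytic subunit, had the largest rise. It ran from 6.30 to 6.92 (median 6.67) in fed and from 6.71 to 7.11 (median 6.92) in fasted mice with 0 earlier fasts, and from 6.20 to 6.76 (median 6.43) and 6.74 to 6.99 (median 6.90) with 2. The groups overlapped in both histories, and the change was 0.28 (SE 0.08, adjusted p = 0.0198) and 0.47 (SE 0.09, adjusted p = 0.000155). With 0 earlier fasts the call was lost when fed replicate 3, fasted replicate 6 or fasted replicate 8 was left out, with adjusted p between 0.0505 and 0.0586. Psmb4 rose by 0.23 in the average, and Psmb1 and Psmb3 stood at 0.02 and -0.03 with no call.

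The constitutive catalytic subunits moved by different amounts. Psmb5, which carries the chymotrypsin-like site, ran from 6.51 to 6.98 (median 6.80) in fed and from 6.78 to 7.26 (median 7.13) in fasted mice with 0 earlier fasts, and from 6.79 to 7.06 (median 6.94) and 6.92 to 7.18 (median 7.03) with 2. It was called higher with 0 earlier fasts (0.27, SE 0.07, adjusted p = 0.00897) and not with 2 (0.10, SE 0.07, adjusted p = 0.489), but the responses were not shown to differ (interaction -0.17, SE 0.10, adjusted p = 0.999). Psmb6, with the caspase-like site, was called only in the average, at 0.15 (SE 0.04, adjusted p = 0.0167). Its fed values were 7.49 to 7.80 (median 7.64) and its fasted values 7.70 to 7.93 (median 7.82) with 0 earlier fasts, and 7.46 to 7.87 (median 7.62) and 7.61 to 7.90 (median 7.77) with 2. Psmb7, with the trypsin-like site, ran from 8.37 to 8.71 (median 8.65) in fed and from 8.39 to 8.74 (median 8.61) in fasted mice with 0 earlier fasts, and from 8.47 to 8.80 (median 8.66) and 8.52 to 8.74 (median 8.63) with 2. Fed and fasted arrays of Psmb7 covered nearly the same range, and the averaged change was -0.01 (SE 0.05, adjusted p = 0.929).

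The immunoproteasome genes went the other way. None of the 3 was called higher, and 2 were called lower with 0 earlier fasts and all 3 with 2 earlier fasts and in the average. Psmb10, the inducible counterpart of Psmb7, ran from 6.04 to 6.69 (median 6.33) in fed and from 5.45 to 5.89 (median 5.64) in fasted mice with 0 earlier fasts. With 2 earlier fasts it ran from 6.40 to 6.70 (median 6.61) in fed and from 5.14 to 5.63 (median 5.52) in fasted mice. All 15 fasted arrays were below all 16 fed arrays. The change was -0.69 (SE 0.09, adjusted p = 3.96e-07) with 0 earlier fasts and -1.12 (SE 0.09, adjusted p = 3.54e-11) with 2, which is 1.62-fold and 2.17-fold lower.

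Psmb8, the counterpart of Psmb5, ran from 6.04 to 6.92 (median 6.29) in fed and from 5.70 to 6.61 (median 5.90) in fasted mice with 0 earlier fasts, and from 6.08 to 6.39 (median 6.27) and 5.66 to 6.10 (median 5.84) with 2. The groups overlapped, mainly through fasted replicate 7 with 0 earlier fasts and fasted replicate 1 with 2. The change was -0.41 (SE 0.11, adjusted p = 0.00946) and -0.40 (SE 0.11, adjusted p = 0.0153). With 0 earlier fasts its adjusted p was 0.0504 in a fit of those 16 arrays alone, which leaves 1 member called lower.

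Psmb9, the counterpart of Psmb6, ran from 4.22 to 4.96 (median 4.71) in fed and from 3.78 to 4.98 (median 4.37) in fasted mice with 0 earlier fasts. With 2 earlier fasts it ran from 4.26 to 5.45 (median 4.56) in fed and from 3.80 to 4.38 (median 4.02) in fasted mice. The groups overlapped over most of their range with 0 earlier fasts and little with 2. It was called only with 2 earlier fasts, at -0.59 (SE 0.16, adjusted p = 0.0134, against -0.27, SE 0.16, adjusted p = 0.354), and the responses were not shown to differ (interaction -0.32, SE 0.23, adjusted p = 0.999).

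Whether each inducible subunit changed unequally with the constitutive one it replaces was tested on the difference of the pair within each array. Over the 6 tests, exact permutation tests of 12870 splits with 0 and 6435 splits with 2 earlier fasts were 2-sided and adjusted together. Psmb10 minus Psmb7 was lower in fasted mice by -0.69 with 0 earlier fasts (exact permutation, adjusted p = 0.000466) and by -1.11 with 2 (exact permutation, adjusted p = 0.000466). Psmb8 minus Psmb5 was lower by -0.68 (exact permutation, adjusted p = 0.0014) and by -0.51 (exact permutation, adjusted p = 0.000622). Psmb9 minus Psmb6 was lower by -0.42 (exact permutation, adjusted p = 0.0305) and by -0.73 (exact permutation, adjusted p = 0.00149). All 3 pairs shifted away from the inducible member in both histories; the values are of transcripts, and protein was not measured. The Psmb9 result with 0 earlier fasts was the weakest: it missed the threshold when any of 6 arrays was left out (fed replicates 3, 5 and 6 and fasted replicates 2, 3 and 5), at -0.35 to -0.39 with adjusted p between 0.0522 and 0.0604.

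**Figure D3:**
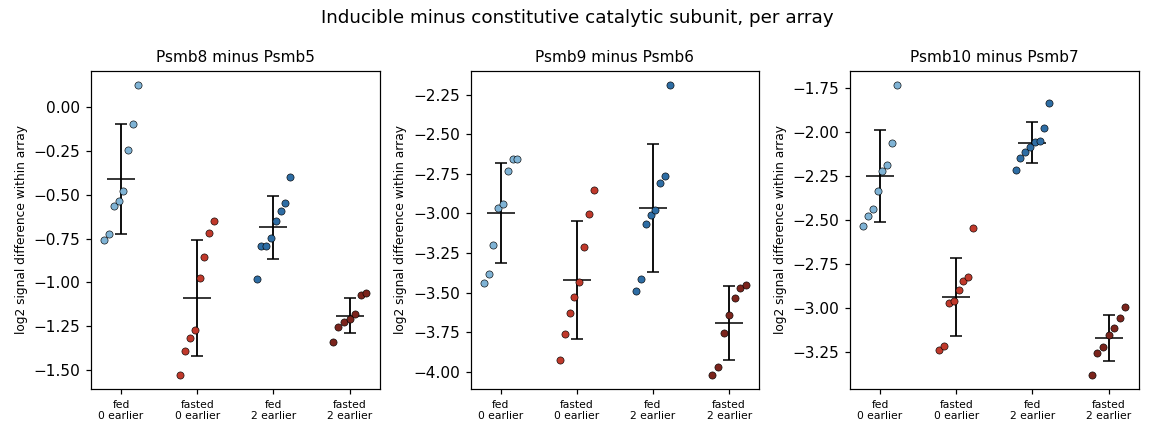
Difference of log2 signal between an inducible and a constitutive catalytic subunit in each array, with the group mean and 1 SD (n = 8, 8, 8 and 7). Only shifts between groups can be read, since the 2 probe sets are not on a common scale. Fasted group means lie lower in all 3 panels. Fasted arrays lie wholly below fed arrays of the same history for Psmb10 minus Psmb7. The same holds for Psmb8 minus Psmb5 only with 2 earlier fasts.

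Most Kupffer cell markers and 3 of 9 measured lymphocyte and dendritic cell markers were called lower in the average, as were the immunoproteasome genes. Of 8 Kupffer cell markers, the macrophages of the liver, 6 were called lower with 0 earlier fasts, 3 with 2 and 7 in the average. Their median averaged change was -0.59, and Marco, the 1 marker above zero at 0.37 (SE 0.30), was not called. Over all genes 6.23%, 5.52% and 9.36% were called lower in these comparisons. The summed log2 signal of the 8 includes Marco, and a sum without it was not taken. With 0 earlier fasts the sum ran from 41.3 to 50.8 in fed and from 37.5 to 47.1 in fasted mice. With 2 it ran from 38.5 to 47.4 and from 36.6 to 45.3, so fed and fasted mice overlapped in this sum. None of the 8 was dimmer than the median gene in its mean over all arrays. Of 9 lymphocyte and dendritic cell markers, 3 were called lower in the average, with summed signals of 19.97 to 22.6 in fed and 17.9 to 22.4 in fasted mice with 0 earlier fasts, and 20.2 to 22.3 and 17.5 to 20.7 with 2. The markers Cd3e, Ms4a1, Nkg7, Itgax, Flt3 and Xcr1 were dimmer than the median gene in their mean over all arrays. Of 5 stellate cell markers 2 were called lower in the average, of 5 sinusoidal endothelial markers 2 lower and 1 higher, and of 4 cholangiocyte markers none. Over all genes 9.36% were called lower and 9.79% higher there, so 1 or 2 calls in lists this short say little. The part of these cell types in the fall of the immunoproteasome genes was not tested. Of the 7 hepatocyte markers, 2 were called higher and 1 lower in the average.

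Of the other genes of class I peptide loading that were listed, 8 were measured. In the average 4 were called lower and none higher, against 9.36% and 9.79% of all genes. Irf1, an interferon-regulated transcription factor that acts on these genes, fell by 0.50 (SE 0.09). Erap1, which trims peptides in the endoplasmic reticulum, fell by 0.35 (SE 0.05), Tapbp, which holds class I molecules at the transporter, by 0.26 (SE 0.05) and Tap2, a transporter subunit, by 0.20 (SE 0.06). Tap1, which lies head-to-head with Psmb9, stood at -0.08 (SE 0.10, adjusted p = 0.687). The class I genes B2m and H2-K1 stood at -0.06 and -0.04, with no call.

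Activators and 20S assembly chaperones showed no call in any comparison. Psme1 and Psme2, which form the interferon-inducible cap on the core, had averaged changes of -0.07 and -0.37, and Psme3 and Psme4, activators of the nucleus, 0.08 and 0.12. Psme2 had the largest spread of all members, with a residual SD of 0.559, above 99.2% of genes. It ran from 3.70 to 4.49 (median 4.06) in fed and from 2.99 to 4.45 (median 4.00) in fasted mice with 0 earlier fasts, and from 2.90 to 5.64 (median 4.26) and 2.84 to 4.14 (median 3.86) with 2. Fed and fasted values overlapped throughout (averaged change -0.37, SE 0.19, adjusted p = 0.185). Without fed replicate 2 with 2 earlier fasts the averaged change was -0.47 with an adjusted p of 0.0487. The chaperones Psmg1 to Psmg4 lay between -0.09 and 0.07 in the average, and the thymus subunit gene Psmb11, dim at a mean of 1.76, at -0.04.

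Psmf1, named as an inhibitor of the core, was called higher in both histories. It ran from 5.51 to 5.95 (median 5.63) in fed and from 5.69 to 6.28 (median 5.98) in fasted mice with 0 earlier fasts. With 2 earlier fasts it ran from 5.15 to 5.62 (median 5.50) in fed and from 5.82 to 6.23 (median 6.01) in fasted mice, where the groups did not overlap. The change was 0.33 (SE 0.09, adjusted p = 0.00755) and 0.56 (SE 0.09, adjusted p = 2.05e-05).

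Genes that work with the proteasome were counted from lists. Against 9.79% of all genes higher and 9.36% lower in the average, 2 of 10 measured partners and accessory factors were called higher and none lower. They were Ecpas, a scaffold that ties the core to the regulatory particle, at 0.21 (SE 0.05, adjusted p = 0.000535), and Zfand5, a zinc finger activator, at 0.21 (SE 0.06, adjusted p = 0.00892). Pomp, the maturation factor of the core, stood at -0.02 with no call. Sem1, a small lid subunit outside the Psm names, was called lower with 0 earlier fasts (-0.21, adjusted p = 0.0230) and stood at 0.04 with 2, and the responses were not shown to differ (interaction 0.25, SE 0.09, adjusted p = 0.999). The list's median change was -0.02.

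Nfe2l1 encodes the transcription factor through which cells restore proteasome genes, and its list covers the enzymes that extract and activate it with the ubiquitin shuttles. Of its 10 measured genes, 7 were called higher in the average and 1 lower, against 9.79% and 9.36% of all genes. The list's median change was 0.19. Nploc4 and Ufd1, the adaptors of the extraction ATPase Vcp, rose by 0.35 each (SE 0.04 and 0.05), and Vcp itself stood at 0.07 (adjusted p = 0.413). Nfe2l1 rose by 0.19 (SE 0.05, adjusted p = 0.00919). Nfe2l2, the related factor of the oxidative stress response, fell by 0.21 in the average (SE 0.06, adjusted p = 0.00490), with -0.37 at 0 earlier fasts and -0.05 at 2. Only 1 of 6 listed ubiquitin genes and activating enzymes was measured under a single symbol, Uba6, which was not called.

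The next comparison asks whether the earlier fasts altered the response. The 2 responses rest on separate arrays. Across the 47 members their log2 changes had a Pearson's r of 0.89 and a Spearman's rho of 0.87, where genes are not independent replicates, and 42 had the same sign. Across all 22180 genes r was 0.85 and rho 0.55, and 14601 had the same sign. Of the calls, 15 of the 19 rises with 0 earlier fasts (78.9%) were also called with 2, which is 88.2% of the 17 there, and both falls with 0 were among the 3 with 2. Psma6, Psmb4, Psmb5 and Psmd2 were called only with 0 earlier fasts and Psma2 and Psmd11 only with 2, but no difference between the responses passed its test.

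**Figure D4:**
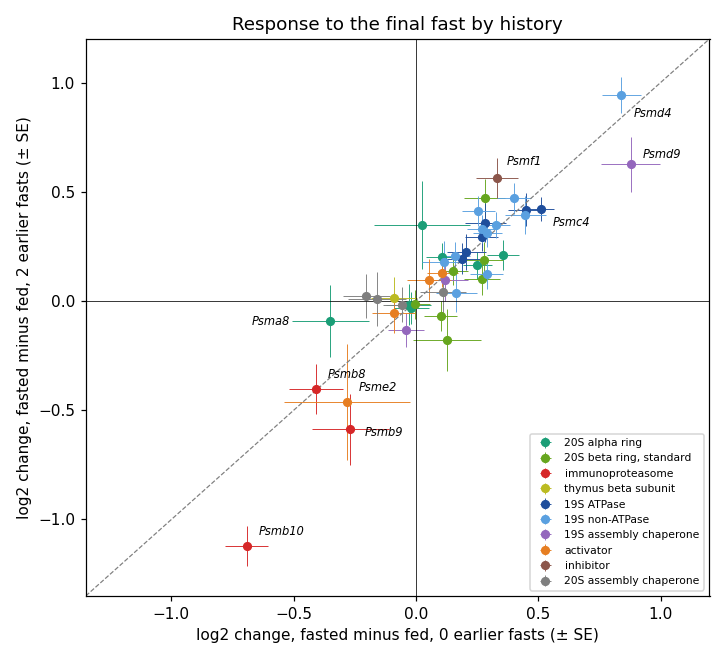
Log2 change of each member, fasted minus fed, with 0 earlier fasts (horizontal axis) against 2 earlier fasts (vertical axis), with 1 SE; the dashed line marks equal change. Most members lie close to the line, and Psmb10 lies farthest below it, at -0.69 and -1.12.

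In the interaction of history and final state limma called 0 members, and 0% of all genes. At an unadjusted p under 0.05 it held 1 member, Psmb10, and 1023 of all genes. The fall of Psmb10 was larger by 0.43 with 2 earlier fasts (interaction -0.43 in the limma fit, SE 0.13, unadjusted p = 0.00218, adjusted p = 0.999). Its fed signals were higher after 2 earlier fasts by 0.24 (SE 0.09, limma adjusted p = 0.856), and its fasted signals stood at -0.18 relative to 0 earlier fasts (SE 0.09, limma adjusted p = 1.00). The 95% intervals of the interaction had a median half-width of 0.23 over the members, so smaller differences between the responses were not resolved.

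The direct effect of the earlier fasts was also without calls. In fed mice, limma called 0 members and 0% of all genes, with 7 members and 1245 of all genes at an unadjusted p under 0.05. The smallest p belonged to Psma5, a dim alpha subunit probe set, at -0.57 (SE 0.20, limma adjusted p = 0.806). It ran from 1.72 to 3.16 (median 2.32) with 0 and from 1.43 to 2.10 (median 1.74) with 2 earlier fasts in fed mice, and from 1.54 to 2.87 (median 2.50) and 1.62 to 2.83 (median 2.07) in fasted mice. The groups overlapped in both states. The other 6 were Psmb10, Psmb2, Psmb3, Psmf1, Psma8 and Psmg3. In fasted mice limma called 0 members and 0% of all genes, with 0 members and 996 of all genes at an unadjusted p under 0.05, and the median change of the members was -0.03. The members' 95% intervals had a median half-width of 0.16 in fed and 0.17 in fasted mice.

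Among animals of a group the residual SD of the proteasome genes had a median of 0.154, against 0.201 over all genes. It ran from 0.0831 for Psmc4 to 0.559 for Psme2. For Psma5, Psma8 and Psmb9 it was above 97.3%, 92.6% and 92.6% of genes. All members but Psma5, Psma8 and Psmb11 were brighter than the median gene, and genes of like signal were not compared. The 31 core and 19S members tended to deviate together within an array. In the Fed-Fed-Fed group, replicates 1 and 2 had only 5 and 4 of the 31 above the group mean, and replicates 4 and 5 had 24 and 25. In the Fast-Fast-Fed group replicate 5 had 6, and replicate 7 had 21. Among fasted mice the count ran from 9 to 25 with 0 earlier fasts and from 8 to 24 with 2. Over all genes the share above the group mean was 45.0% to 51.1% in every array. The arrays were normalized to a common distribution, so that share could hardly vary and is no reference for a set of 31 genes. Whether other genes of like signal deviate together was not examined. The mean log2 signal of the 17 19S genes was 7.23 to 7.51 in fed and 7.63 to 7.80 in fasted mice with 0 earlier fasts, and 7.27 to 7.48 and 7.64 to 7.79 with 2, so this mean separated fed from fasted mice in both histories. The mean of the 14 core genes overlapped, at 6.37 to 6.64 and 6.55 to 6.78 with 0 and 6.39 to 6.57 and 6.50 to 6.67 with 2 earlier fasts. That mean includes the dim Psma5 and Psma8, and Psmb3 at a mean signal of 3.57, whose residual SD was above 85.6% of genes. A core mean without them was not taken, so its overlap is not set against the 19S separation.

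**Figure D5:**
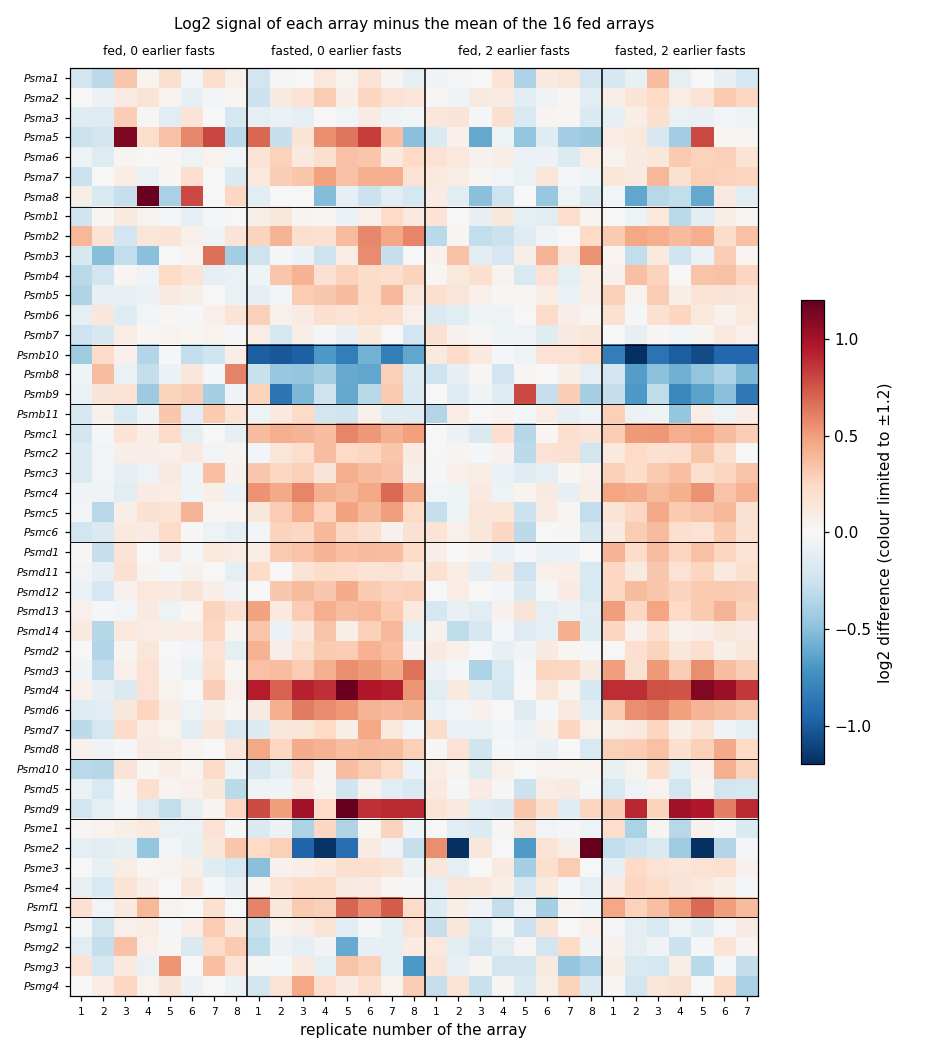
Log2 signal of each member (rows, ordered by class) in each of the 31 arrays (columns, by group and replicate number) minus its mean over the 16 fed arrays, with colours limited to 1.2 in either direction. Most 19S ATPase and non-ATPase rows are red in most fasted arrays, though Psmd7 and Psmd14 are blue in some. Psmd4 and the assembly chaperone Psmd9 are the reddest, and Psmb10 is blue in every fasted array. The pale blue columns of the 19S rows in fed replicates 1 and 2 with 0 earlier fasts show members low together.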

How the data were processed

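Liver RNA of 31 mice was measured on 31 arrays, in groups of 8, 8, 8 and 7 taken from the sample titles. Per the submitters' processing notes the authors used RMA, a method of background correction, quantile normalization and probe set summary, and the deposited values were read as log2 signals. Its version was not given in the sources used here. The platform annotation gave 1 symbol to 23521 of 41345 probe sets, several to 1814 and none to 16010, and only the first were used, which gave 22180 genes. All 47 members had the same symbol in RefSeq.

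One limma fit (version 3.58.1, R 4.3.3, with data.table in version 1.17.8) held the 4 group means with moderated variances. Tests were 2-sided, with Benjamini-Hochberg adjustment over all genes and 6 comparisons: 3 of the response to the final fast, 2 of history and the interaction. Each array was read as 1 animal, as the labels have it. The code was tested on simulated data. Pair differences were tested by exact permutation in Python 3.11.15 with scipy 1.17.1, and figures drawn with matplotlib 3.10.9. Signals above background on single arrays were not assessed, so a gene was called dim when its mean over all arrays was below the median gene.

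The members and gene lists were chosen with earlier results of these data known. Values by group are given for the inducible catalytic subunits and their counterparts, the 10 called members with the largest rise and up to 6 with the largest fall in the averaged response, the member with the smallest p in each history effect and in the interaction, and the member with the largest residual SD. Of other lists, up to 4 called genes by size are given. Further genes named with values (Psmd5, Psmd7, Psmd10, Psmd14, Tap1, B2m, H2-K1, Pomp, Vcp, the other members of small classes and of the rings) were added after their values were seen, to account for every class.

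Replicate numbers occur in every group. Deviations from group means of arrays with the same number had r between -0.064 and 0.116 (median 0.033, 3 of 45 pairs over 0.1), so the numbers were not taken to pair animals. The alternatives were the mean of a gene's probe sets, cyclic loess, array medians subtracted, an intensity trend, only the groups compared, no dim genes, array weights, the replicate block and each array left out in turn.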

Additional observations from a re-analysis of the deposited data

Results flagged for a closer look

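In 84 sets of arrays, each 1 group for 1 named member or 1 pair difference, the most extreme array was compared with its nearest neighbour, and 3 stood apart by Dixon's criterion. By chance about 1 in 20 sets would. Psmb5 was lowest in Fed-Fed-Fed replicate 1 at 6.51, with the next array at 6.78. Psmd6 was lowest in Fed-Fed-Fast replicate 1 at 6.82, with the next at 7.10. Psme2 was lowest in Fast-Fast-Fast replicate 5 at 2.84, with the next at 3.74. The first of these arrays also had few of the core and 19S members above its group mean, 5 of 31.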

How the results depend on the processing

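Over 39 alternatives to the main setting, 795 of the 802 values for counts, medians and pair differences stayed within 1.5 times the main count, within 1 SD of the main median (0.101, between arrays of a group) or on the same side of the threshold with the same sign. The 802 include counts of 0 calls in both history effects and the interaction, where no gene was called in the main setting. A tolerance of 0.101 is also wide beside the members' median change of 0.15 in the average. The share that stayed is therefore a weak measure of robustness. No value past the threshold changed sign. Values near zero that were not called did: the median of the members in the interaction (-0.0165 to 0.0315), Psma5 with 0 earlier fasts (-0.0618 to 0.143) and Psmb7 with 0 (-0.0372 to 0.0225), with 2 (-0.0403 to 0.00681) and in the average (-0.0263 to 0.0120). Members called lower with 0 earlier fasts went from 2 to 1 when only the groups compared were fitted, a setting that gives no value for the average or the interaction. The unequal change of Psmb9 and Psmb6 with 0 earlier fasts ran from -0.348 to -0.501 with 1 array left out. With 1 array left out, members called higher ran from 18 to 21 with 0 earlier fasts, from 14 to 17 with 2 and from 24 to 25 in the average. With the replicate block, for which the numbers gave no basis in pairing, 19, 14 and 25 members were called higher and 2, 3 and 3 lower. The filter on dim genes removed Psma5, Psma8 and Psmb11 from the tests.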
